A study of Mus musculus with 18 samples.

Results

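The genes followed here were Cdx1, Cdx2, Cdx4, Evx1 and Nkx1-2, which encode homeodomain transcription factors of the posterior embryo, and Cyp26a1, Aldh1a2, Rarb and Rarg, which encode enzymes and receptors of the retinoic acid pathway. These 9 genes were chosen by symbol, and all 9 were found among the 20703 genes of the expression table. The study sequenced RNA from E14 mESCs, a mouse embryonic stem cell line grown in the presence of the cytokine LIF. Per the methods, these cells were kept on a feeder layer of mouse embryonic fibroblasts (MEFs) or on gelatin. Differentiation was started by withdrawal of LIF and feeder cells, and cells were taken at day 0, day 2 and day 4. Cells were either WT for Nsd1, the gene of a histone H3K36 methyltransferase, or belonged to one of 2 lines with a homozygous deletion of its exon 5, KO-1 and KO-2. Each KO line is 1 clone, made by Cas9 and 2 guides in E14 cells that carried a 3×Flag tag on the endogenous Nsd1 gene. In the study's immunoblot of the KO lines, the WT cells carried that tag. Whether the WT cells of the RNA libraries did is not given in the sources used here. Each line was sampled with 2 biological replicates per day, which gave 2 WT and 4 KO libraries a day and 18 in all, each with between 9309874 and 23921193 counts on genes. The study describes the replicates as independent biological ones, and p-values measure the spread between these libraries. Tests of KO against WT took the 4 KO libraries of a day as separate units, without a term for clone. With 1 WT line and 2 KO clones, these p-values do not extend to other WT lines or KO clones.

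In the gastrulating embryo, retinoic acid is made from retinaldehyde by Aldh1a2 in the trunk mesoderm and is broken down by Cyp26a1 in the tail bud, so the posterior end is kept low in retinoic acid while Wnt and Fgf signals act there. Retinoic acid binds nuclear receptors such as Rarb and Rarg, which sit on DNA as partners of Rxr proteins, and Rarb and Cyp26a1 are themselves known targets of the pathway. The Cdx factors, encoded by paralogs of the ParaHox family, pattern the posterior axis together with Hox genes, and Cdx2 is also known from the trophectoderm and the gut. Evx1 and Nkx1-2 are markers of the primitive streak and of the posterior epiblast next to it.

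The genes of Cyp26a1 and Rarb are known for a retinoic acid response element close to the start, and their sequences are shown because the pair behaved very differently in these libraries. The DR5 element, a direct repeat of the hexamer AGGTCA (with A or G allowed as its opening base and G or T as its middle one) with 5 bases between the copies, was searched on both strands of the RefSeq promoters, from 250 bases before to 50 bases after each start. It was in 0.0974% of 32851 promoters of the assembly GRCm38.p6, and among the 8 genes of interest with such a sequence, in those of Cyp26a1 and Rarb. The Cyp26a1 stretch is chr19:37697708-37697797 on the plus strand and ends before the annotated first exon. The Rarb stretch is chr14:16575506-16575535 on the minus strand and lies in the annotated first exon of 2 Rarb transcripts. Capitals mark the element.
Cyp26a1: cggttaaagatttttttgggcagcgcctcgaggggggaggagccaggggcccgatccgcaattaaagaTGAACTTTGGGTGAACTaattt
Rarb: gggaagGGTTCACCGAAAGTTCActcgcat
The Cyp26a1 copy reads on the strand opposite to the gene, where both hexamers are AGTTCA, and the Rarb copy reads on the strand of the gene and opens with GGTTCA. Repeats of the same hexamers with 2 or 1 bases between them (DR2 and DR1) were in 0.268% and 0.222% of all promoters and in no promoter of the 8 genes. The letters CTTTGA, the core of the Tcf/Lef motif, were in 16% of promoters and TTTATG, a Cdx core, in 11.9%, and neither was in the window of any of the 8. A match is a description of the letters and no evidence of binding. These coordinates belong to an older build than mm39, the one to which the reads were aligned.

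Nsd1 was first examined as a check of the labels. Normalized read counts, which are the counts divided by a size factor for each library, were 3374 and 3660 in WT at day 0, against 837 and 711 in KO-1 and 689 and 635 in KO-2. At day 4, they were 2425 and 2111 in WT, 1103 and 910 in KO-1, and 575 and 684 in KO-2. Every KO library was below every WT library on each day, and the mean was 4.9-fold lower at day 0 and 2.77-fold lower at day 4. The deletion removes 1 exon, so reads from the other exons can persist in KO libraries.

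The main test was limma on the deposited VST values, which are on a log2 scale with a floor of 8.36 for a count of 0, so that differences of low genes are compressed. Genes were called at a Benjamini-Hochberg adjusted p under 0.01 and an absolute log2 difference over 0.58. Ratios given as fold are those of mean normalized counts, with 95% exact intervals on counts summed over libraries. These intervals cover counting error only, and not the spread between replicates or between KO clones. The ratio of a single clone can therefore lie outside them. At day 4, 5 of the 9 genes were called lower in KO and 1 higher, with 3.91% of all genes called lower and 3.67% higher. The median log2 difference of the 9 was -1.12, against 0 over all genes. The 9 genes were chosen with earlier results of these data known, so the shares and medians are descriptive. At day 2 the only call among them was Cdx4, higher (4.01% of all genes higher, 2.37% lower), and at day 0 it was Cdx1, lower (0.879% lower, 1.73% higher). These 8 calls were also made with either KO clone alone and without any single library.

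**Figure D1:**
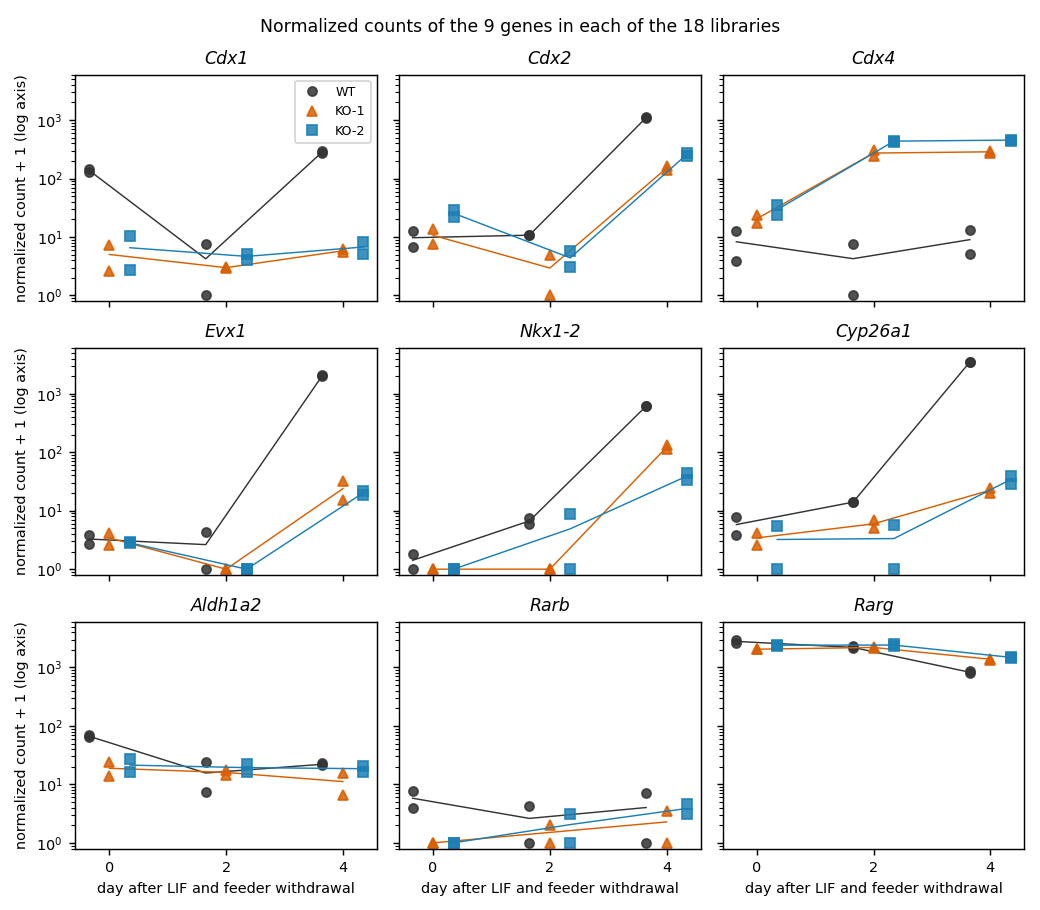
Normalized counts plus 1 (log axis) of the 9 genes by day, with 1 point per library (WT circles, KO-1 triangles, KO-2 squares) and lines through the line means (points are set apart sideways within a day). WT climbs between day 2 and day 4 for Cdx1, Cdx2, Evx1, Nkx1-2 and Cyp26a1, whereas Cdx4 climbs in both KO lines by day 2 and stays at 12.0 or less in WT.

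**Figure D2:**
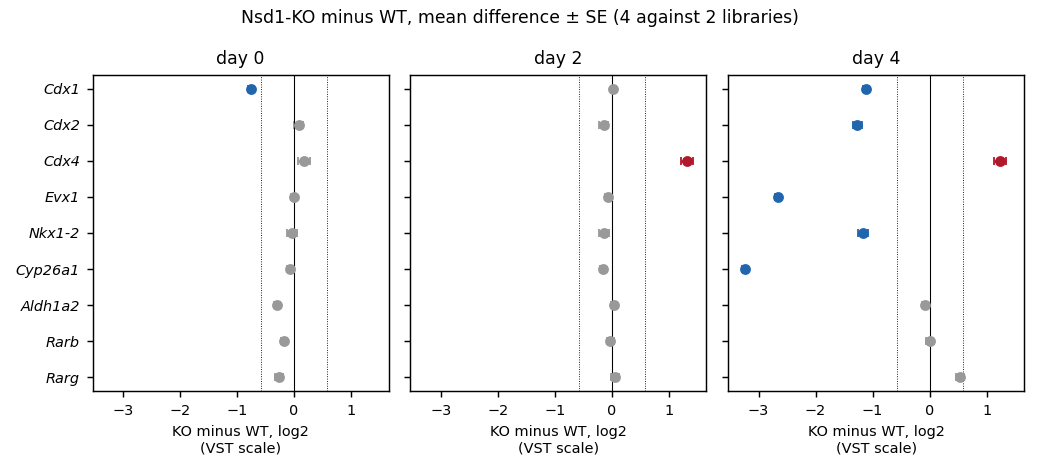
Difference between KO and WT (log2, VST scale) with its SE for each gene and day, 4 against 2 libraries, where the SE can be smaller than the point. Blue and red points were called lower and higher, grey ones were not called, and dotted lines mark 0.58 on either side of 0. Cyp26a1 and Evx1 lie farthest to the left at day 4, at -3.24 and -2.67.

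Among the Cdx genes, the 3 paralogs each behaved differently. Cdx2, which was nearly silent in WT at day 0 and day 2, reached normalized counts of 1084 and 1113 in WT at day 4. It was 160 and 139 in KO-1 and 277 and 241 in KO-2 on that day. All KO libraries were well below both WT libraries but far above their own day 2 values, which were 4.68 at most. The day 4 mean was 5.38-fold lower in KO (interval 5 to 5.78), with a log2 difference of -1.27 ± 0.08 (SE) and an adjusted p of 5.25e-11 in limma. Within KO cells, Cdx2 was still called higher at day 4 than at day 2 (log2 0.99 ± 0.07, adjusted p = 6.97e-10 in limma), from a mean of 2.67 ± 2.08 (SD, n = 4) to 204 ± 65.4 (SD, n = 4).

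Cdx1 was the Cdx gene already present in WT cells before differentiation. Its normalized counts were 131 and 144 in WT at day 0, 0 and 6.48 at day 2, and 296 and 275 at day 4. In the KO libraries, the highest values were 9.35 at day 0, 4.21 at day 2 and 7.3 at day 4. Cdx1 thus dipped and returned in WT, and none of the KO libraries came near the WT level of day 0 or day 4. The mean was 28.6-fold lower in KO at day 0 (interval 18.9 to 52.2) and 54.1-fold lower at day 4 (interval 36.7 to 83.5). The log2 differences were -0.75 ± 0.05 (SE) and -1.12 ± 0.05 (SE), with adjusted p of 1.3e-09 and 3.88e-13 in limma. At day 2, both genotypes were near the floor, with 0 to 4 counts in each library, and no difference was detectable at that depth.

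Cdx4 went the opposite way. At day 2, its normalized counts were 6.52 and 0 in WT, against 301 and 242 in KO-1 and 442 and 427 in KO-2. At day 4, they were 4.03 and 12.0 in WT, 295 and 275 in KO-1, and 443 and 463 in KO-2. At day 0, they were 11.7 and 2.88 in WT, 16.1 and 22.9 in KO-1, and 23.1 and 33.7 in KO-2, so the groups did not overlap there either. The day 0 difference was not called (log2 0.18 ± 0.1, adjusted p = 0.208 in limma), whereas those of day 2 and day 4 were (1.32 and 1.24, adjusted p of 3.04e-09 and 4.14e-09 in limma). With only 4 counts in the 2 WT libraries of day 2, the ratio of means was 108, with an interval from 43 to 405. At day 4 it was 46.1 (27.4 to 65.3). Cdx4 was the only one of the 9 genes called higher at day 2 than at day 0 within KO cells (log2 1.04, 14.8-fold, with 1.43% of all genes called higher), and its KO mean then stayed level, at 353 ± 97.4 (SD, n = 4) on day 2 and 369 ± 97.7 (SD, n = 4) on day 4.

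Levels of different genes were compared only per kilobase of exon. In WT at day 4, Cdx2 stood at 486 ± 9.0 (SD, n = 2) normalized counts per kb, Cdx1 at 163 ± 8.31 and Cdx4 at 4.08 ± 2.87. In KO at day 4, the order was Cdx4 at 188 ± 49.8 (SD, n = 4), Cdx2 at 90.4 ± 28.9 and Cdx1 at 3.02 ± 0.798. Summed over the 3 paralogs, the level was 653 ± 3.56 in WT and 281 ± 78.1 in KO. Cdx4 made up 0.624% ± 0.436 of that sum in WT (SD, n = 2) and 67.0% ± 1.86 in KO (SD, n = 4). At day 2 the sum itself was higher in KO, 183 ± 50.7 against 7.83 ± 0.255, and 98.5% ± 0.389 of it was Cdx4. In bulk RNA, fewer cells that express a gene and less RNA of it per cell cannot be told apart, here and below.

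**Figure D3:**
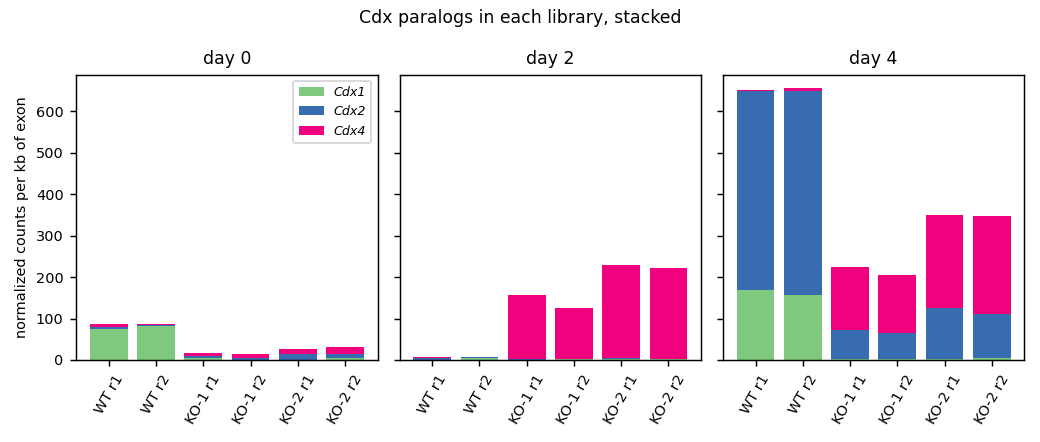
Normalized counts per kb of exon of Cdx1, Cdx2 and Cdx4, stacked, in each library of day 0, day 2 and day 4. The WT bars of day 4 are mostly Cdx2 and Cdx1, and the KO bars of day 2 and day 4 are mostly Cdx4.

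Evx1 and Nkx1-2 were markers with almost no reads before day 4. Evx1 had at most 2 counts in any library at day 0 and day 2, and was at 0 in all 4 KO libraries of day 2. At day 4, its normalized counts were 1989 and 2125 in WT, 31.6 and 14.1 in KO-1, and 17.5 and 21.0 in KO-2. The mean was 97.8-fold lower in KO (interval 86.1 to 130), with a log2 difference of -2.67 ± 0.05 (SE) and an adjusted p of 6.43e-20 in limma. The KO libraries were not silent, with between 22 and 28 counts each, and their mean was at least 7.33-fold above a floor of 3 counts per library at day 2. That rise was under the fold threshold on the VST scale (log2 0.36, adjusted p = 4.99e-07 in limma).

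For Nkx1-2, normalized counts at day 4 were 612 and 612 in WT, 130 and 112 in KO-1, and 43.4 and 32.8 in KO-2. All KO libraries were below WT, and both KO-2 libraries were below both KO-1 libraries. The mean was 7.71-fold lower in KO (interval 7.03 to 8.81), with a log2 difference of -1.17 ± 0.09 (SE) and an adjusted p of 1.15e-09 in limma. Within KO cells, Nkx1-2 was called higher at day 4 than at day 2 (log2 0.62 ± 0.07, adjusted p = 2.17e-06 in limma). That call was lost without either KO-1 library of day 4, where the log2 difference was 0.546 or 0.567. With Cdx2, it was 1 of the 2 genes of the 9 that passed in this comparison (0.923% of all genes were called higher).

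Cyp26a1, which clears retinoic acid by oxidation, showed the widest gap of the 9 genes at day 4. Its normalized counts were 3446 and 3532 in WT, 23.7 and 19.2 in KO-1, and 28 and 38.3 in KO-2. The KO libraries lay far below WT and close to each other, and the mean was 128-fold lower in KO (interval 110 to 156). The log2 difference was -3.24 ± 0.06 (SE), with an adjusted p of 6.43e-20 in limma. At day 2, both WT libraries were at 13.0 and the KO libraries at 5.85, 4.07, 4.68 and 0, so the groups did not overlap, but the difference was not called (log2 -0.16, adjusted p = 0.0316 in limma). Per kb, Cyp26a1 was the most abundant of the 9 genes in WT at day 4, at 1759 ± 30.9 (SD, n = 2), ahead of Evx1 at 715 ± 33.2, and in KO it was at 13.8 ± 4.12 (SD, n = 4).

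The other members of the Cyp26 family did not show the gap of Cyp26a1 between KO and WT at day 4. Cyp26c1, which lies 4400 bases away from it on the same strand, was at 11 ± 1.77 per kb in WT at day 4 (SD, n = 2) and 29.3 ± 9.93 in KO (SD, n = 4), a difference under the fold threshold (log2 0.21, adjusted p = 0.00532 in limma). Cyp26c1 was at 1.86 per kb in WT and 3.91 in KO at day 2, so it was higher at day 4 in both genotypes. At day 4, Cyp26b1 was at 1.4 ± 0.146 per kb in WT and 1.13 ± 0.565 in KO, too near the floor to show a difference. Summed over the 3 enzymes, the level at day 4 was 1772 ± 32.5 in WT and 44.2 ± 14.1 in KO.

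Aldh1a2, the main enzyme of retinoic acid synthesis in the early embryo, was low throughout. At day 0, its normalized counts were 63.7 and 67.6 in WT, 12.8 and 22.9 in KO-1, and 25.7 and 15.0 in KO-2. The groups did not overlap, and the mean was 3.44-fold lower in KO (interval 2.44 to 4.36). The log2 difference of -0.30 ± 0.05 on the VST scale had an adjusted p of 2.15e-04 in limma but was under the fold threshold. By day 2 the WT values had come down to 22.8 and 6.48, on either side of the KO libraries (13.7 to 21.1). At day 4, WT was at 20.1 and 22.1 and KO between 5.64 and 19.6, so the groups just missed each other, and the difference was not called (log2 -0.08, adjusted p = 0.298 in limma). Its paralogs were lower still, with Aldh1a1 and Aldh1a3 at 0.46 ± 0.0735 and 0.765 ± 0.465 per kb in WT at day 4, against 9.33 ± 0.616 for Aldh1a2.

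Of the receptors, Rarg was the abundant one and Rarb was at the floor. Rarg normalized counts were 2914 and 2657 in WT at day 0, 2107 and 2284 at day 2, and 853 and 798 at day 4. At day 4, they were 1352 and 1403 in KO-1 and 1497 and 1473 in KO-2, all above WT, and the mean was 1.73-fold higher in KO (interval 1.67 to 1.84). The log2 difference was 0.53 ± 0.07 (SE) with an adjusted p of 2.56e-06 in limma, just under the threshold of 0.58. At day 0 the KO values, between 2026 and 2429, were all below WT (log2 -0.27 ± 0.07, adjusted p = 0.0063 in limma), also under the threshold. Rarb had at most 8 counts in any library and was at 0 in all 4 KO libraries of day 0, where WT had 8 and 2 counts. Its level at day 4 was 6.04 and 0 in WT and between 0 and 3.65 in KO, and a difference was not detectable at this depth. Rara, the remaining receptor of this type, was at 89.4 ± 2.49 per kb in WT at day 4 and 170 ± 16.9 in KO, beside 194 ± 9.17 and 336 ± 15.6 for Rarg. The Rara difference was also under the threshold (log2 0.50, adjusted p = 1.25e-06 in limma).

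The time course in WT cells set the scale for these differences. Between day 2 and day 4, 5 of the 9 genes were called higher in WT, Cdx1, Cdx2, Evx1, Nkx1-2 and Cyp26a1, and Rarg was called lower (5.69% and 3.07% of all genes). Mean Cyp26a1 went up 268-fold (interval 166 to 471) and Cdx2 113-fold (64.6 to 219). Nkx1-2 went up 108-fold (52.1 to 268), and Evx1, which had only 2 counts at day 2, went up with a ratio of 1262 and an interval from 353 to 10533. Between day 0 and day 2, the only call in WT was Cdx1, lower (4.02% of all genes). At day 4, the order of the 9 genes per kb in WT was Cyp26a1, Evx1, Cdx2, Rarg, Nkx1-2, Cdx1, Aldh1a2, Cdx4 and Rarb. Rarg at 194 ± 9.17 and Nkx1-2 at 188 ± 0.139 did not differ beyond their spread. In KO it was Rarg, Cdx4, Cdx2, Nkx1-2, Cyp26a1, Evx1, Aldh1a2, Cdx1 and Rarb. There, from Nkx1-2 at 24.3 ± 14.8 over Cyp26a1 at 13.8 ± 4.12, Evx1 at 7.31 ± 2.63 and Aldh1a2 at 6.13 ± 2.6 to Cdx1 at 3.02 ± 0.798, the libraries of each gene overlapped those of the next.

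Whether the difference between KO and WT itself changed with time was tested by the interaction of genotype and day in limma. From day 0 to day 4, it was called different for 6 of the 9 genes (6.93% of all genes). It moved down for Cyp26a1 (log2 -3.17 ± 0.08), Evx1 (-2.66), Cdx2 (-1.35) and Nkx1-2 (-1.13), and up for Cdx4 (1.06) and Rarg (0.80). From day 0 to day 2, it was called different for Cdx1 (0.78) and Cdx4 (1.14), with 3.19% of all genes. These tests are least certain where day 0 counts are near the floor. On the whole counts recovered from the deposited values and analysed with limma-voom, the interaction was called for 3 of the 9 genes at day 4 (Evx1, Cyp26a1 and Rarg, 14.9% of all genes) and for Cdx1 at day 2 (7.34%). The calls it lost kept their direction. At day 4, log2 values were -3.2 for Cdx2, 3.72 for Cdx4 and -2.25 for Nkx1-2 (adjusted p of 0.0119, 0.0507 and 0.438 in limma-voom). At day 2, Cdx4 was at 5.4 (adjusted p = 0.0433 in limma-voom).

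For KO against WT, the same limma-voom analysis of counts does not compress low genes. It called 7 of the 9 genes at day 4 (23.9% of all genes), 1 at day 2 (23.9%) and 2 at day 0 (13.3%). The calls it added were Rarg at day 4 (log2 0.80, adjusted p = 1.1e-06) and Aldh1a2 at day 0 (-1.74, adjusted p = 4.28e-04). Between day 0 and day 2 in WT, it added Aldh1a2, lower (log2 -2.33, with 19.5% of all genes called). Between day 2 and day 4 in KO, it called 5 genes, with Evx1 (5.36) and Cyp26a1 (3.11) added as higher and Rarg (-0.69) as lower, where 10.3% of all genes were called.

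KO-1 and KO-2 were also set against each other, with 2 libraries each per day. By limma on VST values, none of these genes was called on any day, where 0.029% (day 0), 0.0435% (day 2) and 0.251% (day 4) of all genes were called. Along the days, 2, 1 and 3 of them had an unadjusted p under 0.05, as had 14.8%, 12.3% and 25.3% of all genes. At day 4, these were Cdx2 and Cdx4, lower in KO-1 (log2 -0.29 and -0.31), and Nkx1-2, higher in KO-1 (0.37), with adjusted p of 0.00362, 0.00571 and 6.82e-04 in limma. On counts, limma-voom called these same genes at day 4 (2.23% of all genes). Nsd1 also differed between clones at day 4, at 1006 ± 136 in KO-1 and 630 ± 76.8 in KO-2 (SD, n = 2), and its part in these differences was not tested. Evx1 was at 22.8 ± 12.4 in KO-1 and 19.2 ± 2.46 in KO-2, and Cyp26a1 at 21.5 ± 3.15 and 33.2 ± 7.29.

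Genes that lie next to these genes or across them were read for shared signal, with positions from the GENCODE M21 annotation of GRCm38. Evx1os, an antisense RNA that overlaps Evx1, was at 564 ± 58.4 in WT at day 4 (SD, n = 2) and 7.67 ± 2.59 in KO (SD, n = 4), and it was also called lower (log2 -1.56, adjusted p = 1.93e-17 in limma). The library kit named in the sources does not mark strand, so reads of Evx1 and Evx1os cannot be told apart where they overlap. Pdgfrb, a growth factor receptor gene 8951 bases from Cdx1, was at 523 ± 23.2, 120 ± 8.5 and 457 ± 21.1 in WT at day 0, day 2 and day 4. In KO it was at 182 ± 25.3, 31.0 ± 7.63 and 26.0 ± 16.7, and it was called lower at day 0 and day 4, like Cdx1. Slc6a7, which is nearer to Cdx1, stayed at 10.2 or less on average in every group. Fgfr2, whose annotated span overlaps Nkx1-2 on the same strand, was called higher in KO at all 3 days (log2 0.91, 1.32 and 0.88), whereas Nkx1-2 was called lower at day 4 and was near the floor before. Lhpp, 11001 bases from Nkx1-2, was called lower at all 3 days (log2 -0.68, -0.96 and -0.77), and Oat, 18480 bases from it, at day 4 (-1.30). Chic1, 25884 bases from Cdx4, was not called on any day, and at day 4 it was at 204 ± 10.8 in WT and 431 ± 80.0 in KO (log2 0.46, adjusted p = 4.8e-05 in limma). Top2b overlaps the long span of Rarb and was at 1597 or more on average in every group, while Rarb itself was near 0.

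**Figure D4:**
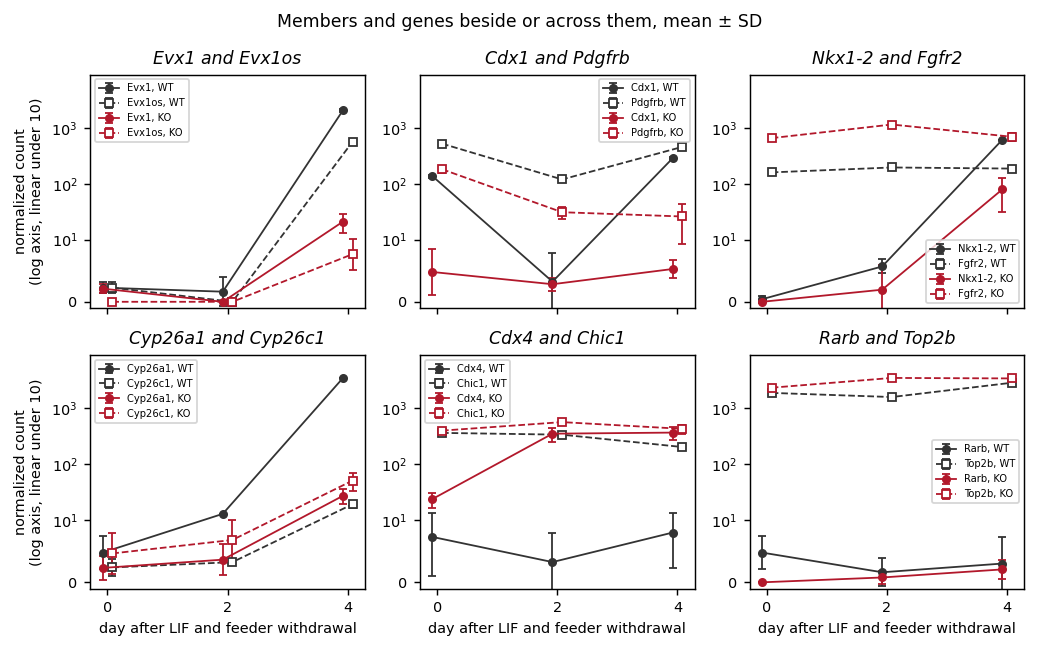
Mean normalized counts with SD by day (log axis, linear under 10) for 6 of the 9 genes (filled, solid lines) and a gene beside or across each (open, dashed lines), WT in black and KO in red. Evx1os follows Evx1 in both genotypes, Pdgfrb dips and returns in WT like Cdx1, and Fgfr2 is higher in KO on every day.

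For each of the 9 genes, the genes with the most similar VST values over the 18 libraries were listed. They came from 13137 genes with a mean normalized count of at least 20, and the 9 genes themselves were not listed. These correlations describe libraries that fall into groups by genotype and day. Cyp26a1 was most like Mixl1 (Pearson's r = 0.996), a streak gene at 6829 in WT and 38.9 in KO at day 4, and Lhx1 (r = 0.994), at 2263 and 6.73. Evx1 was most like Evx1os (r = 0.997), Aplnr (r = 0.993), the apelin receptor gene of nascent mesoderm, at 2015 and 5.79, and Gbp2b (r = 0.993). Evx1 and Cyp26a1 were also alike (r = 1.0 at 2 decimals), and Evx1os was the next gene for Cyp26a1 (r = 0.993). Cdx2 was most like Clu, Acta1 and Sfn (r of 0.991, 0.988 and 0.984), and Nkx1-2 like Ppp4r4, Slco5a1 and Rtl8b (r of 0.991, 0.987 and 0.986). Each of these 6 genes was higher in WT than in KO at day 4 but well above its own day 2 level in KO, like Cdx2 and Nkx1-2 themselves. For example, Sfn was at 13325 in WT and 1843 in KO at day 4, and at 327 in KO at day 2. Cdx1 was most like Arhgap8 (r = 0.968) and, among others, Ankrd33b (r = 0.966), with means of 128, 17.9 and 415 in WT along the 3 days.

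Cdx4 had its own company. It was most like Ackr4 (r = 0.986), an atypical chemokine receptor gene at 465 and 500 in KO at day 2 and day 4 and at 14.2 or less in WT, Slco1a5 (r = 0.964) and Ntn3 (r = 0.956). Its r with Cdx2 was -0.05 and with Cdx1 -0.47. The genes most like Rarg included Phc1 and Rtkn2 (r of 0.964 and 0.957), which also declined more in WT than in KO, with Phc1 at 3187 in WT and 5985 in KO at day 4. For Aldh1a2, the closest were Tmem229b, Oser1 and 2310039H08Rik (r of 0.905, 0.899 and 0.896), which were highest in WT at day 0. Those of Rarb, Uspl1, Wdr41 and Katnal1, reached r of 0.707 at most, with Rarb itself near the floor in all libraries.

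Related gene lists, also chosen with earlier results of these data known, were then read at day 4 beside the shares of all genes given above. Of 23 genes of the posterior epiblast and presomitic mesoderm, 12 were called lower in KO and 2 higher, and the median log2 difference was -0.83, against 0 over all genes. The largest falls were in T (log2 -4.80 ± 0.12 (SE), from a mean of 16248 to 140), the Brachyury gene of the streak, Mixl1 (-4.02) and Wnt5a (-2.49), a ligand that acts in axis elongation. The 2 called higher were Fgf4 (1.16, from 78.0 to 626), a growth factor gene of pluripotent cells and streak, and Gbx2 (0.73, from 62.5 to 319), a homeobox gene. On counts, limma-voom called 16 lower and 3 higher at day 4. At day 2, 2 were called higher and 2 lower. Between day 2 and day 4, 14 of the 23 were called higher in WT and 7 in KO.

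Of 17 genes of retinoid metabolism and transport, 2 were called lower and 1 higher at day 4. Fabp5, a lipid carrier that also binds retinoic acid, was at 1334 in WT and 464 in KO (log2 -0.93, adjusted p = 1.29e-09 in limma), and Rdh11, a retinal reductase, at 1909 and 823 (log2 -0.85, adjusted p = 6.99e-11 in limma). Rdh10, which makes the retinaldehyde that Aldh1a2 uses, was at 645 and 1324 (log2 0.65, adjusted p = 3.6e-06 in limma). The median was 0.04, close to 0 over all genes. On counts, limma-voom called 3 lower and 1 higher, and its median log2 difference was 0.44, against 0.0023 over all genes. Of 10 genes of retinoid receptors and coregulators, 3 were called higher and none lower by limma on VST values (6 had an unadjusted p under 0.05, beside 44.2% of all genes), with a median of 0.32. On counts, limma-voom called 4 higher and 1 lower, Nrip1 (log2 -0.66). Among those higher by both were the coactivators Ncoa1 (0.80) and Ncoa3 (0.69), which were called higher at day 2 as well.

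Of 11 genes known to respond to retinoic acid, 3 were called lower in KO at day 4 and none higher by limma on VST values (9 had an unadjusted p under 0.05, as had 44.2% of all genes), with a median of -0.10. On counts, limma-voom called 5 lower and 1 higher, Nr2f2 (log2 3.58, from a mean of 3.65 to 36.3), and the median was -1.75. Hoxb1, an anterior Hox gene, was at 243 in WT and 0.456 in KO (log2 -1.18, adjusted p = 1.95e-13 in limma). Tgm2, a transglutaminase gene, was at 268 and 72.5 (log2 -0.60). At day 0, Tgm2 and Stra8, a gene named for its response to retinoic acid, were called lower, and Stra8 was at 344 in WT and 24.6 in KO (log2 -1.03). None of 14 central and posterior Hox genes was called in either direction at day 4 by limma (4 had an unadjusted p under 0.05, below the 44.2% of all genes, and 1 higher and 1 lower on counts by limma-voom), and their summed normalized count was 203 and 261 in WT, 152 and 163 in KO-1, and 298 and 301 in KO-2, so the clones lay on either side of WT. Of 5 further ParaHox genes and paralogs of these genes, 2 were measured, Gsx2 and Nkx1-1, and neither was called by limma. Nkx1-1 was at 0 in both WT libraries of day 4 and had a mean of 7.94 in KO, with an unadjusted p under 0.05 and a call on counts by limma-voom.

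**Figure D5:**
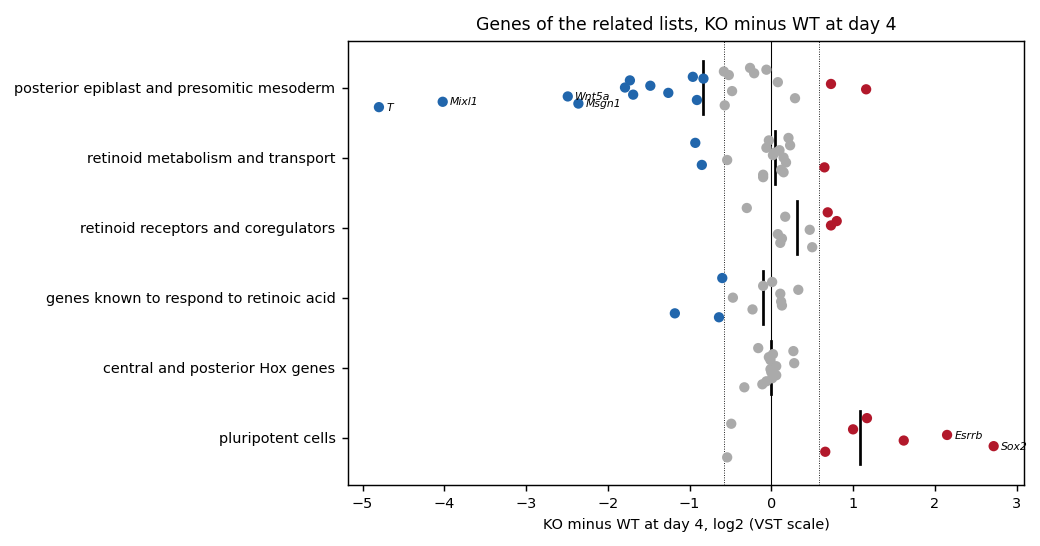
Difference between KO and WT at day 4 (log2, VST scale) for each gene of 6 lists, 1 point per gene, with blue and red for genes called lower and higher and grey for the rest. Black bars are list medians and dotted lines mark 0.58 on either side of 0. The posterior list reaches to -4.80 at T, and the pluripotency list lies mostly to the right.

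Markers of other cell states moved with the same comparison. Of 8 pluripotency genes, 6 were called higher in KO at day 4, with the largest differences in Sox2 (log2 2.72), Esrrb (2.15) and Zfp42 (1.62). The other members, Pou5f1 (from 5417 to 3537, log2 -0.54, adjusted p = 2.68e-05 in limma) and Tbx3 (from 629 to 320, log2 -0.49, adjusted p = 9.38e-07 in limma), were lower in KO but under the fold threshold, and limma-voom called both lower. Pou5f1 was called lower at day 2 (log2 -0.69). The summed normalized count of the 8 genes was 8803 and 8738 in the WT libraries of day 4 and between 15278 and 17445 in the KO libraries. Per kb, the most abundant at day 4 was Pou5f1 in WT, at 2410 ± 32.0 (SD, n = 2), and Sox2 in KO, at 2087 ± 96.2 (SD, n = 4). Normalized counts of Sox2 were 253 and 217 in WT and between 4083 and 4546 in KO. At day 2 the sum was 13807 and 12941 in WT and between 20337 and 23752 in KO. The part of these cells in the lower posterior genes and the higher Rarg was not tested.

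Cdx2 also marks trophoblast, and of 9 measured trophoblast genes, 2 were called lower in KO at day 4, Krt7 (log2 -1.01) and Tead4 (-0.85), and 1 higher, Tfap2c (0.77). Limma-voom on counts called 3 lower and 3 higher. Elf5, a defining gene of trophoblast stem cells, had a mean of 2.01 in WT and 0.32 in KO at day 4. The summed count was 1247 and 1259 in WT and between 1237 and 1473 in KO, where Tfap2c, which pluripotent and germ line cells also express, was at 248 and 255 in WT and between 587 and 955 in KO. Per kb, the most abundant at day 4 was Tead4 in WT, at 115 ± 13.0 (SD, n = 2), and Tfap2c in KO, at 203 ± 47.6 (SD, n = 4). Of 6 genes of the intestinal epithelium, where Cdx1 and Cdx2 are known regulators, 1 was called lower, Vil1, the most abundant per kb at day 4 in both genotypes (log2 -0.62, from 140 to 16). The sum was 159 and 151 in WT and between 16.4 and 39.5 in KO, and Muc2 and Sis were at 0 in both WT libraries of day 4. Of 10 extraembryonic endoderm genes, 2 were called lower, Gata4 (-1.49) and Gata6 (-1.48). The study lists Gata4 among factors of meso-endoderm formation and Gata6 among those of the heart, so neither is particular to extraembryonic endoderm. The sum of the 10 genes was 1887 and 1816 in WT and between 324 and 797 in KO. Limma-voom on counts called 5 lower and 1 higher, Amn (from a mean of 13.4 to 97.7, log2 2.86). Per kb, the most abundant at day 4 was Gata4 in WT, at 179 ± 10.5 (SD, n = 2) against 9.0 ± 2.56 in KO (SD, n = 4), and Amn in KO, at 53.0 ± 3.76.

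Genes used as markers of feeder fibroblasts were present at day 0, and their differences between KO and WT went in both directions. Of 8 measured genes, 3 were called higher in KO at day 0 and 1, Col1a1, lower at day 4 (log2 -1.11). Limma-voom on counts called 4 higher at day 0 and 4 lower at day 4. The sum of the 8 genes was 2673 and 2613 in WT at day 0 and between 4472 and 5289 in KO. At day 2, the sum was 1064 and 903 in WT and between 557 and 706 in KO. At day 4, the sum was 2337 and 2178 in WT and between 556 and 1255 in KO. In WT it was thus higher at day 4 than at day 2, after feeder cells were withdrawn. Which cells these reads came from was not tested. Col1a1 was the most abundant per kb in both genotypes at day 0 and day 4. Its normalized counts at day 0 were 1471 and 1493 in WT and between 2455 and 2994 in KO. Lum was at 0 in the WT and KO libraries of that day. At day 0, Cdx1, Aldh1a2, Rarb and Rarg were lower in every KO library than in WT (24.3% of all genes), opposite to the fibroblast sum, and Cdx4 was higher in every KO library (23.1% of all genes), like that sum. The part of feeder cells in any of the differences was not tested.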

How the data were processed

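RNA-seq libraries were those of E14 mESCs described above. Per the labels and methods, the authors trimmed reads with Trim Galore 0.6.7, aligned them to mm39 with STAR 2.7.11a, counted with featureCounts 2.0.6 and removed genes with a low average count. The strand setting of counting is not given in the sources used here. The authors deposited the variance-stabilized (VST) values of DESeq2 1.42.0, which are log2 values, with 20703 genes in the table. All 18 columns were matched to samples by label and none was left over.

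From the deposited values, whole counts and size factors were recovered by inverting the transformation (100% of 372654 values within 0.1 of a whole number). Of counts from 1 to 8, between 74.1% and 79.4% per library were even, for a reason that was not tested. If each fragment was counted as a pair, the counting intervals are too narrow.

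VST values were compared in 6 groups of genotype and day with limma 3.58.1 in R 4.3.3 (trended prior variance, Benjamini-Hochberg adjustment over all genes), and counts with limma-voom. Clones were compared in 9 groups. No exact permutation of 4 against 2 libraries can go below p = 0.0667. Replicates of each group differed by more than sampling noise. Data were also simulated for KO against WT at day 4 with 20703 genes. In them, 98 genes changed 4-fold, 102 changed 8-fold and 20503 did not change. There, limma on VST values recovered 76.5% of 4-fold and 86.3% of 8-fold changes with 0 false calls, and limma-voom 98% and 100% with 3. In the deposited values, limma called 1569 genes in this comparison. Whether the simulated spread matches that between the replicates and clones was not tested. The simulated shares therefore do not give the recovery or the false calls of the results above.

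The 9 genes and all lists were chosen with earlier results of these data known. Genes were named by this rule: the 9 genes, Nsd1, the 3 largest calls per direction of each list at day 4, the 3 most similar genes, and a marker list's most abundant and defining genes. Family paralogs and neighbouring genes were named for their family or position, and Stra8, Gsx2, Nkx1-1, Nrip1, Nr2f2, Pou5f1 and Tbx3 singly, after values were seen. Gsx1, Pdx1, Evx2, Tpbpa, Prl3d1 and S100a4 were not analysed here, and a few genes that the rule names are not reported here. Sequences are from RefSeq (GRCm38.p6), which matched 8 of the 9 genes, and exon lengths from GENCODE M21, by gene identifier. Figures were drawn with matplotlib.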

Additional observations from a re-analysis of the deposited data

Results flagged for a closer look

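Results are given where 1 library stood apart from its group or where a difference between KO and WT changed with time. Among the 4 KO libraries of day 2, Nkx1-2 had 10 counts in 1 KO-2 library and 0 in the other 3, so the gap to the nearest library was the whole range (1). For Cyp26a1 on the same day, 1 KO-2 library was at 0 while the others had 4 to 6 counts. On the VST scale, where it was at 8.36 and the others between 8.52 and 8.55, the gap was 0.834 of the range. On counts, the gap was a smaller part of the range. Chance alone would set about 1 in 20 of the 30 groups examined apart, and both cases lie near the floor.

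The interaction of genotype and day was called for 9 items. From day 0 to day 2, the difference between KO and WT moved up for Cdx1 (log2 0.78) and Cdx4 (1.14). For Cdx1, the WT mean went from 137 at day 0 to 3.24 at day 2, and the KO mean was at 4.8 and 2.83. From day 0 to day 4, it moved down for Cdx2 (-1.35), Evx1 (-2.66), Nkx1-2 (-1.13) and Cyp26a1 (-3.17), and up for Cdx4 (1.06), Rarg (0.80) and Nsd1 (0.62). The Nsd1 change was lost without any one of 9 of the 12 libraries compared, with a log2 value between 0.523 and 0.702.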

How the results depend on the processing

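No call among the 9 genes changed its direction under any alternative run, and without single libraries the calls of KO against WT were kept at each day. The count of called genes moved under other choices of test and threshold. With limma-voom on counts it was 2 in place of 1 at day 0, 2 in place of 1 for WT from day 0 to day 2, 5 in place of 2 for KO from day 2 to day 4, and 3 in place of 0 between clones at day 4. For KO against WT at day 4 it was 2 higher and 5 lower, in place of 1 higher and 5 lower. For the interactions it was 1 in place of 2 (day 2) and 3 in place of 6 (day 4). With an adjusted p under 0.05 and no fold threshold, it was 4 at day 0 (29.7% of all genes), 2 in place of 1 at day 2 (46%), 3 for WT (40.6%) and 3 in place of 1 for KO (35.7%) from day 0 to day 2, 5 for KO from day 2 to day 4 (23.7%), 4 for the interaction of day 2 (21.7%), and 1 and 3 between clones at day 2 (0.966%) and day 4 (12.8%). With KO-2 alone, 1 gene was called in KO from day 2 to day 4, and leaving out single libraries gave 1 to 2 there, since Nkx1-2 was lost. At an adjusted p under 0.05 without the fold threshold, Rarg was also added at day 4 (37.2% of all genes passed). Cdx1 and Aldh1a2 were added to the interaction of day 4 in the same way (27%). Rarb did not pass a filter at the 25th percentile of mean values, and 8 of the 9 genes did. Limma-voom moved the median of all genes from -0.016 to -0.14 for KO against WT at day 2, and from -0.02 to -0.17 for WT from day 2 to day 4.

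On average, replicate numbers did not pair the samples (mean r of -0.0476 over 36 pairs of groups, from -0.612 to 0.636). In 13 of these pairs r was over 0.1, and whether some groups share a structure was not tested. With a replicate block, 1 gene was called at day 0, 1 at day 2 and 6 at day 4, as without it. The fits that left a clone or WT group with 1 library assumed that it varies like the others. Depth limits Rarb on every day, Evx1, Nkx1-2 and Cyp26a1 before day 4, Cdx1 and Cdx2 at day 2, and groups such as Cdx1 in KO and Cdx4 in WT before day 4, at 14 counts or less per library.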
